A study of Capra hircus with 3 samples.

Results

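The mitochondrially encoded transcripts ND1, ND2, ND3, ND4, ND5, ND6, COX1, COX2, COX3 and CYTB were examined in single cells of fetal goat skin. These 10 genes were chosen by name from the 16739 genes of the table, and all 10 had counts in each of the 3 libraries. The animals were Northern Shaanxi White Cashmere goats (Capra hircus), and dorsal skin was taken at embryonic days 60 (E60), 90 (E90) and 120 (E120), which the study assigns to the induction, organogenesis and cytodifferentiation of hair follicles. There was 1 library per stage, made with a droplet-based 3′ chemistry from cells of at least 2 fetuses pooled before barcoding, so the stages are compared without a measure of how fetuses vary, and no test was made. For E60 and E90 the whole skin was dissociated, with collagenase IV and pipetting. E120 was hair follicles taken out of collagenase-treated skin with forceps and then dissociated with an enzyme the labels spell TypLE Express, so wherever E120 is compared, its stage and its preparation cannot be told apart. The labels name no treatment or genetic change in any group. All intervals given are 95% ones for counting error alone, exact for levels and shares and approximate, on the log scale, for fold differences. The word share is used for the percent of UMIs, and no statistical significance is attached to higher or lower.

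Mitochondria keep a small circular genome of their own. The proteins it encodes are all core parts of the machinery of oxidative phosphorylation: the ND genes encode subunits of complex I (NADH dehydrogenase), CYTB encodes cytochrome b of complex III, and COX1, COX2 and COX3 encode the catalytic core of complex IV (cytochrome c oxidase). The other subunits come from the nucleus. Each strand of the circle is transcribed as a long precursor that is cut into the single transcripts, so their levels are set together by transcription and apart by processing and decay. ND6 is the only one of them encoded on the light strand. In single-cell data the summed share of these transcripts is widely read as a sign of cell condition, because cytoplasmic RNA leaks from damaged cells more readily than RNA inside mitochondria.

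The libraries differed in depth, in makeup and in the lowest depth present. The table held 6849 cells at E60, 6931 at E90 and 6896 at E120, 20676 in all beside the 19705 that the study's design text states. Their unique molecular identifiers (UMIs) summed to 65049552, 30277663 and 93403291, with medians per cell of 8579, 3714 and 13064 and lowest values of 6269, 3000 and 2475. Marker genes of epithelial cells, 13 of 14 listed, summed to 4.64 UMIs per 1000000 UMIs of the library (CPM) at E60, 5250 CPM at E90 and 1855 CPM at E120. At E60 the keratinocyte genes TP63 and KRT14 were among 7 of them without a count, so the E60 library held next to no epithelial RNA. Dermal fibroblast markers, 9 of 10 listed, summed to 17578 CPM at E60, 3687 CPM at E90 and 467 CPM at E120, where TWIST2 and DPT were at 0. Cell barcodes shared between libraries numbered 9 for E60 and E90, 13 for E90 and E120, and 10 for E60 and E120.

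The 10 transcripts took a larger share of the RNA at E90 than at the other stages. They made up 4.48% of all UMIs at E60 (interval 4.48% to 4.49%, 2916086 UMIs), 11.1% at E90 (11.1% to 11.2%, 3373252 UMIs) and 5.37% at E120 (5.36% to 5.37%, 5013160 UMIs). The E90 share was 2.49 times that of E60, and the E120 share was 0.482 times that of E90 and 1.20 times that of E60. The shift was seen across the bulk of the cells: the median cell had 4.23% in the E60 library, 10.5% in E90 and 4.95% in E120. The spread between cells was narrowest at E60, where the middle 90% of cells lay between 3.05% and 6.62%. It ran from 4.86% to 20.5% at E90 and from 0.493% to 13.1% at E120.

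**Figure D1:**
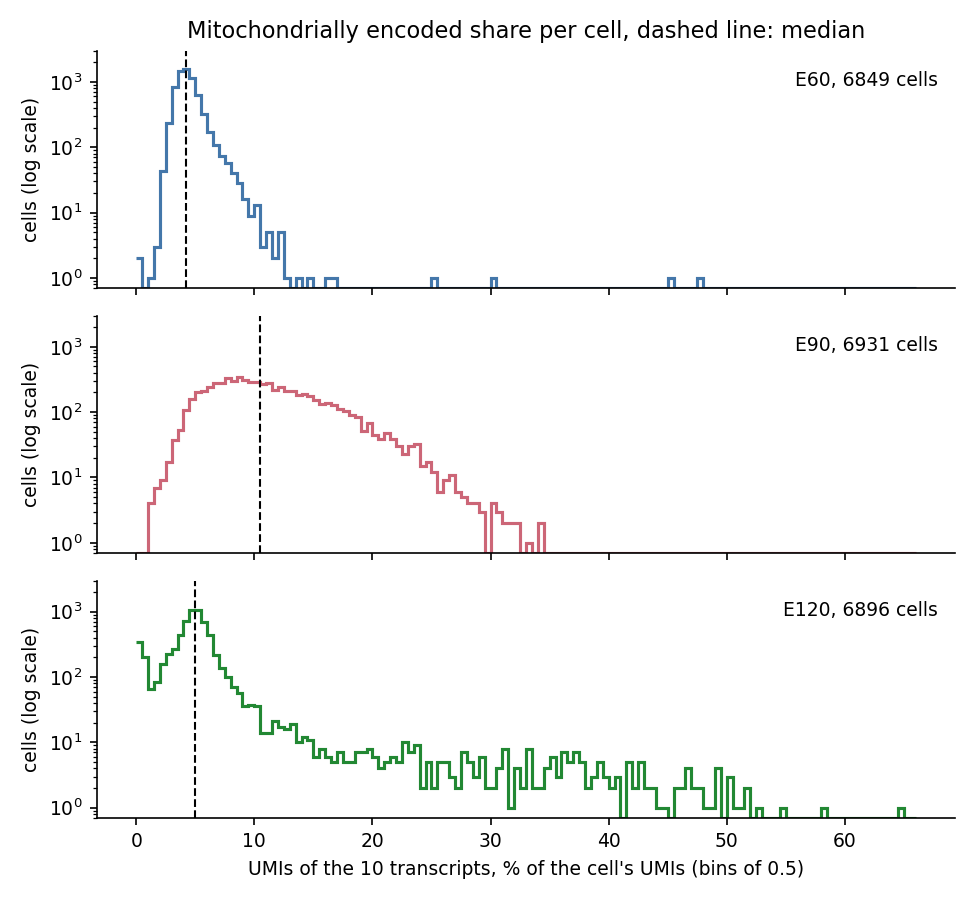
Number of cells (log scale) against the percent of a cell's UMIs that came from the 10 transcripts, in bins of 0.5, for the 3 libraries, with the median as a dashed line. The E60 cells form a narrow peak around 4.23%, the E90 cells a broad one around 10.5%, and the E120 cells a narrow peak around 4.95% with a second group under 1% and a long tail beyond 20%.

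Cells at the extremes were spread unevenly over the libraries. A share of at least 10% was found in 37 cells at E60, 3734 at E90 (53.9% of that library) and 468 at E120. A share of at least 20% was found in 4, 394 and 234 cells, and one of at least 30% in 3, 16 and 135. A share under 1% was found in 550 cells of E120 (7.98%), 2 of E60 and 0 of E90. The maximum over single cells was 47.6% (E60), 34.4% (E90) and 64.7% (E120). Thus E90 had the highest middle, whereas most of the cells under 1% and over 30% were from E120.

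Counted per cell rather than as a share, the transcripts were not most abundant at E90. A cell had on average 426 UMIs of the 10 transcripts at E60, 487 at E90 and 727 at E120. UMIs of all genes outside the mitochondrial genome averaged 9044, 3851 and 12773 per cell. From E60 to E90 the member UMIs per cell were 1.14 times as many, while the other UMIs were 0.426 times as many. From E90 to E120 both were higher, 1.49 times for the members and 3.32 times for the others. The larger share at E90 therefore stood beside fewer other UMIs per cell. UMIs per cell also depend on how deeply each library was sequenced, which cannot be told apart from RNA per cell here.

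Each of the 10 transcripts was higher at E90 than at E60 by at least 2-fold, the size of difference that 21.3% of 6278 genes reached in that direction and 8.08% in the other. Genes entered these counts when they had at least 10 CPM in the higher library. The median of the 10 log2 ratios of CPM + 1 was 1.40, beside 0.13 over all genes. From E90 to E120, 7 of the 10 were at least 2-fold lower, namely ND1, ND3, ND4, ND6, COX2, COX3 and CYTB, and ND2, ND5 and COX1 were lower by less. The median log2 ratio was -1.11, beside -0.24 over all genes, of which 24.2% of 6357 were at least 2-fold lower and 9.99% at least 2-fold higher. From E60 to E120 none of the 9 transcripts with enough counts differed by 2-fold, and their median log2 ratio was 0.26 beside 0.02 over 5982 genes, of which 19.4% were at least 2-fold higher and 21.5% at least 2-fold lower. Among cells with at most 10% of their UMIs from the 10, a limit that leaves out most E90 cells and few E60 cells and so lowers the E90 level by its own construction, only ND5 and ND6 were at least 2-fold higher at E90 than at E60 and only ND6 was at least 2-fold lower at E120 than at E90, with medians of 0.72 and -0.52. Without the cells under 1% or over 20%, a limit on the same quantity that was chosen after the data were seen, 8 of the 10 were at least 2-fold higher at E90 than at E60.

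The complex IV transcripts held most of the UMIs. COX3 was at 12820 CPM at E60, 34347 CPM at E90 and 17110 CPM at E120. It was the highest of the 10 in every library, and its E120 level was 1.33 times its E60 level. COX2, which carries the copper center that takes up electrons from cytochrome c, was at 7929, 17076 and 7734 CPM. Its E60 and E120 levels were nearly equal, with a log2 ratio of -0.04. COX1, which carries the site where oxygen is reduced, was at 6039, 12676 and 7215 CPM. It had the smallest difference of the 10 between E60 and E90, 2.10-fold (2.09 to 2.11). CYTB of complex III was at 6251, 16080 and 7598 CPM, a 2.57-fold difference from E60 to E90.

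**Figure D2:**
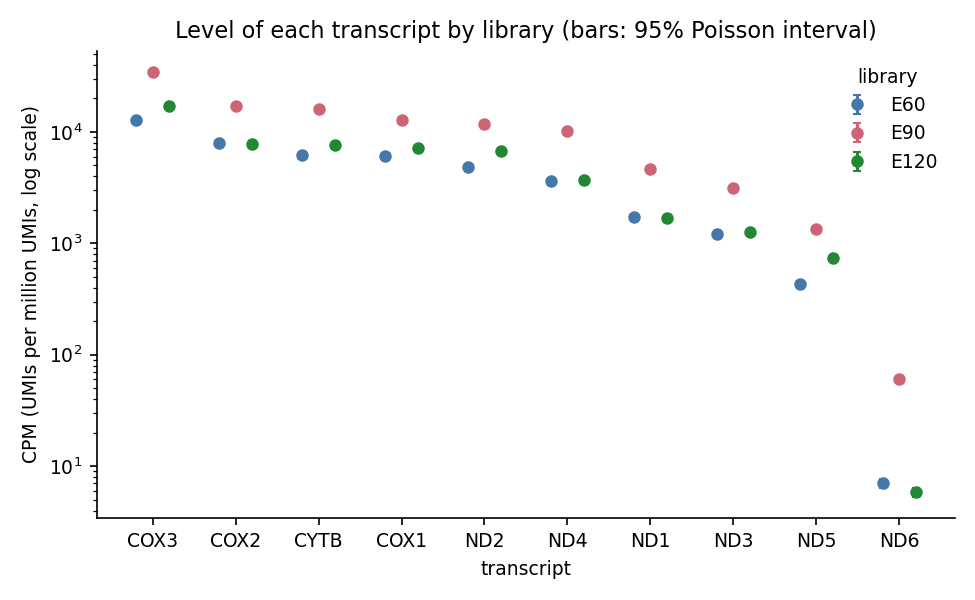
Level of each of the 10 transcripts in CPM (log scale) in the E60, E90 and E120 libraries, ordered by the E60 level, with exact 95% Poisson intervals that are smaller than the points for most. Every E90 point lies above the E60 and E120 points of the same transcript, and ND6 lies far below the other 9 in each library.

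The complex I transcripts differed between stages by unequal amounts. ND2 was at 4819, 11828 and 6671 CPM at E60, E90 and E120, and ND4 at 3592, 10165 and 3660 CPM. The E120 level of ND4 was thus close to its E60 level (log2 ratio 0.03), while that of ND2 was above it (log2 ratio 0.47). ND1 was at 1722, 4666 and 1679 CPM, and ND3 at 1222, 3159 and 1260 CPM, both with E120 levels close to those of E60. ND5 was at 428, 1355 and 740 CPM, and it had the largest difference of the 9 more abundant transcripts between E60 and E120, 1.73-fold (1.70 to 1.75). UMIs in this chemistry are counted at the 3′ ends and are not scaled by transcript length, so the order of the transcripts is an order of UMIs and not of molecules per unit of length.

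ND6 stood apart from the other 9. It had 459 UMIs in the E60 library, 1823 in E90 and 543 in E120, or 7.06, 60.2 and 5.81 CPM. The E90 level was 8.53 times that of E60 (7.70 to 9.45), and the E120 level was 0.0966 times that of E90 (0.0877 to 0.106). No UMI of ND6 was found in 6414 of the E60 cells, 5426 of the E90 cells and 6391 of the E120 cells. Across cells of a library, the Spearman correlation between the share of a transcript and the summed share of the other 9 was 0.82, 0.96 and 0.89 for COX3 at E60, E90 and E120, over 6849, 6931 and 6896 cells that share their total UMIs as the denominator. For ND6 it was 0.03, -0.07 and 0.08, at counts too sparse to read an association from. ND6 lies beside ND5 on the other strand, and whether the counting used strand is not given in the sources used here, so ND6 and RNA antisense to it cannot be told apart. Reads from copies of mitochondrial DNA in the nucleus could also have been counted, and how they were treated is likewise not given.

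The table also held the other 3 protein-coding genes of the mitochondrial genome. ATP6, a subunit of ATP synthase, was at 2835 CPM at E60, 6700 CPM at E90 and 3099 CPM at E120. ND4L, a small complex I subunit, was at 111, 428 and 184 CPM. Both were at least 2-fold higher at E90 than at E60 and at least 2-fold lower at E120 than at E90, as most of the 10 were. ATP8 had 5 UMIs at E90 and 0 in the other libraries, where a count of 0 allows up to 0.0461 CPM at E60 and 0.0321 CPM at E120. ATP8 and ATP6 overlap on one transcript, and how the counting divided them is not given.

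Within the 10, the balance between the complexes was similar in the 3 libraries. Complex IV transcripts made up 59.8% of the UMIs of the 10 at E60, 57.5% at E90 and 59.7% at E120. CYTB made up 13.9%, 14.4% and 14.2%, and the 6 complex I transcripts made up 26.3%, 28.0% and 26.1%. The order of the 10 by UMIs was the same in all 3 libraries: COX3, COX2, CYTB, COX1, ND2, ND4, ND1, ND3, ND5 and ND6. Each complex thus had nearly the same part of the 10 in libraries whose summed shares differed by up to 2.49-fold.

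Single transcripts differed more in their part of the 10. Between E60 and E120, where the sum had a log2 ratio of 0.26, the log2 ratio of the part was 0.53 for ND5, -0.30 for ND1, -0.30 for COX2 and -0.54 for ND6. Over the whole libraries COX3 made up 28.6% at E60, 30.8% at E90 and 31.9% at E120, higher at each later stage. COX2 had the opposite order, with 17.7%, 15.3% and 14.4%. COX1 was lowest at E90, with 13.5%, 11.4% and 13.4%. ND4 was highest at E90, with 8.01%, 9.12% and 6.82%, and so was ND1, with 3.84%, 4.19% and 3.13%. ND3 followed the same order as ND1, at 2.73%, 2.84% and 2.35%. ND2 was at 10.7% and 10.6% and then at 12.4%. ND5 was higher at each later stage, with 0.956%, 1.22% and 1.38%. ND6, the light-strand transcript, was at 0.0157%, 0.0540% and 0.0108%, and its log2 ratios of 1.78 and -2.32 for the part at the successive steps were larger than those of the sum, 1.31 and -1.05. How far fetuses of a stage differ in this balance is not known from 3 pooled libraries.

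Cells were clustered within each library with all 13 mitochondrially encoded genes left out, so that their own counts did not take part in forming the clusters. A pair of genes without symbols that followed the share closely across clusters was kept in, and a clustering without that pair is described further below. This gave 23 clusters at E60, 28 at E90 and 30 at E120, of which 14, 23 and 23 were named from marker genes. Clusters that stayed unnamed held 4333, 3520 and 1826 cells. The ends of the order were close to fixed over the 81 clusters, and its upper ranks were not. COX3 was the highest of the 10 in 81 of 81 and ND6 the lowest in 81 of 81. ND5 was ninth in 80. COX2 was second in 22 of 23 clusters at E60 and 27 of 28 at E90 but in 7 of 30 at E120, where it held rank 3 in 16 and rank 4 in 7. COX1 and CYTB were each second in 11 of the E120 clusters and ranged there from rank 2 to rank 5.

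The summed share differed between clusters within each library, least at E60 and most at E120. It ran from 3.71% to 7.44% over the E60 clusters, from 5.67% to 17.1% over the E90 clusters and from 0.768% to 37.3% over the E120 clusters. At E60 the dermal-like clusters together were at 4.27% (4.26% to 4.28%, 1424 cells) and those like tendon or cartilage at 4.91% (568 cells). Schwann- or glial-like cells were at 7.44% (73 cells), skeletal muscle-like cells at 6.94% (50 cells), mural-like cells, which wrap small vessels, at 6.69% (142 cells), and endothelial-like cells at 6.68% (140 cells). Myeloid-like cells were at 4.74% (119 cells). Dermal-like cells were thus the lowest of the named E60 classes, and nerve, muscle and vessel classes the highest.

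At E90 the classes also found at E60 had the same order, with dermal-like cells below myeloid-like cells and these below endothelial-like cells. Dermal-like cells were at 6.81% (533 cells), the lowest class, and within them dermal fibroblast-like cells were at 6.53% and dermal papilla-like cells, the signaling center of the follicle, at 9.53%. The papilla-like value came from 1 cluster of 94 cells with 3 papilla markers. Another dermal-like cluster, of 136 cells, had 6 papilla markers but none among its 10 leading genes. It was not assigned to papilla or fibroblast and was at 7.51%. Epithelial-like cells were at 8.97% (2441 cells). Within these, suprabasal epidermis-like cells were at 6.35%, hair shaft-like cells at 9.74% and a cluster of 341 cells led by AK8, LHX2 and CCL20 at 11.3%. Endothelial-like cells were at 11.6% (100 cells), mast-like and melanocyte-like cells at 11.2% each (81 and 113 cells), and myeloid-like cells at 10.4% (65 cells). The highest E90 cluster, with 1537 cells at 17.1%, had no name. It was led by a pair of genes without symbols that also followed the 10 transcripts most closely, and by KLK7 and the globin gene HBAI.

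At E120 the named classes outside the epithelium had lower shares than the epithelial-like class. Epithelial-like cells were at 5.52% (4298 cells), with hair shaft-like cells at 5.76%, inner root sheath-like cells at 5.16%, a cluster of 162 cells led by SPP1, KRT14 and KRT17 at 5.55% and suprabasal epidermis-like cells at 3.95%. Mural-like cells were at 4.71% (65 cells), endothelial-like cells at 3.71% (366 cells), myeloid-like cells at 3.40% (21 cells), dermal-like cells at 3.16% (222 cells) and mast-like cells at 2.98% (98 cells). Median depths were 15914.5 UMIs in the epithelial-like cells and between 3718.5 and 6414 UMIs in these other classes, and the part of depth in the order was not tested.

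**Figure D3:**
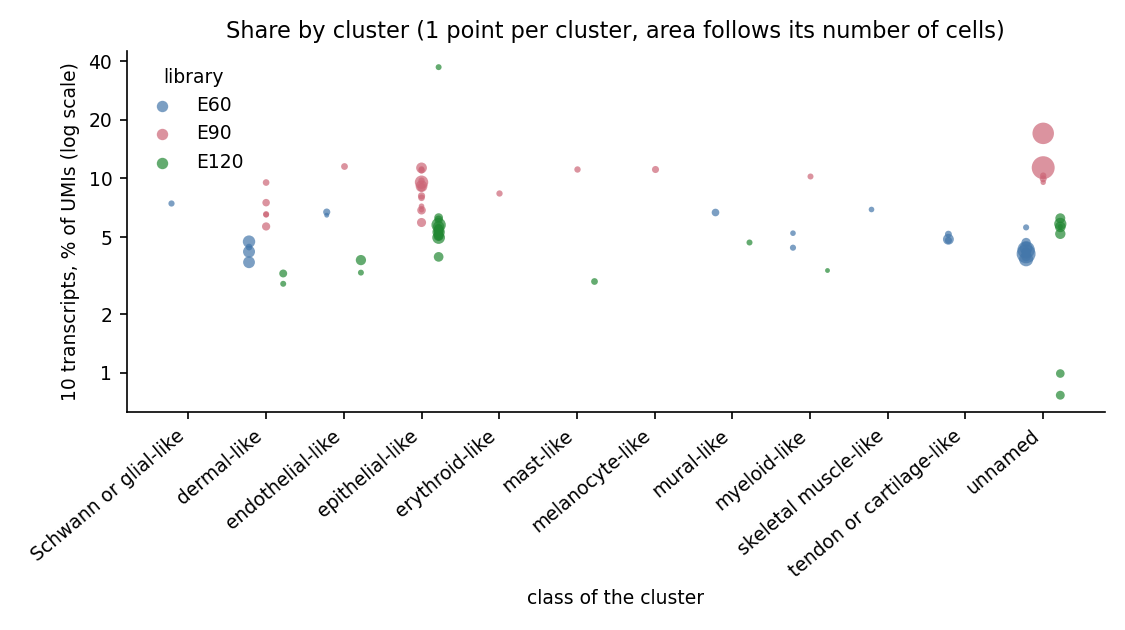
Percent of UMIs from the 10 transcripts (log scale) in each cluster, by class and library, with the area of a point following its number of cells. In dermal-, endothelial-, myeloid- and mast-like classes each E90 point lies above the points of the other stages, epithelial-like clusters of E90 and E120 overlap in range, one E120 hair shaft-like cluster lies at 37.3%, and 2 unnamed E120 clusters lie under 1%.

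Set side by side within classes, E90 had the higher share in 8 of 8 contrasts with another stage. All 8 used the same E90 library and some classes entered more than once, so the contrasts are not independent. From E60 to E90 the share was 1.59-fold higher in dermal-like cells, 1.73-fold in endothelial-like cells and 2.18-fold in myeloid-like cells, each less than the 2.49-fold of the whole libraries. From E90 to E120 it was 0.464 times as high in dermal-like cells, 0.616 in epithelial-like, 0.321 in endothelial-like, 0.328 in myeloid-like and 0.266 in mast-like cells. From E60 to E120 the classes and the whole libraries differed in opposite directions. The share was lower at E120 in 4 of 4 classes, at 0.739 times in dermal-like, 0.556 in endothelial-like, 0.704 in mural-like and 0.717 in myeloid-like cells, whereas the whole E120 library was 1.20 times the E60 library. The E120 library was mainly epithelial-like cells, a class that E60 did not have. When classes were set cell by cell from markers and not from clusters, the E60 to E120 direction turned for dermal-like cells (log2 ratio 0.23) and mural-like cells (0.05). For myeloid-like cells the log2 ratio was then 0.51 from E60 to E90, beside 1.13 with clusters, and -0.84 from E90 to E120, beside -1.61. Classes also changed in makeup: the dermal-like cells of E120 were 158 papilla-like and 64 fibroblast-like cells, while at E60 no dermal-like cluster could be assigned to either.

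Sums of early response and heat shock genes, which can be induced during dissociation, differed with the stages as well. Of the list, 12 of 16 genes were in the table, and they summed to 11170 CPM at E60, 15813 CPM at E90 and 11878 CPM at E120, with no gene at 0. Within E90 they ran against the member share: they were at 20394 CPM of the UMIs outside the mitochondrial genome in cells with 5% to 7.5% and at 13483 CPM in cells with 20% to 30%. Within E120 the same bins differed the other way, at 11851 and 16239 CPM, while cells with 2% to 3% were at 17072 CPM. Red cell genes, 5 of 11 listed, summed to 796, 2912 and 255 CPM. SLC4A1, a defining red cell gene, was at 0 at E90 and E120. Across E90 cells the Spearman correlation of the member share with the red cell sum was 0.29, beside 0.03 at E60 and 0.01 at E120, over cells that share their library and depth. Pooled over bins of E90 cells, the red cell sum was not highest at high shares. On the scale of UMIs outside the mitochondrial genome it was 40583 CPM in the 26 cells with 2% to 3%. It was 1639 CPM in cells with 5% to 7.5%, 2641 CPM with 10% to 15% and 2239 CPM with 20% to 30%. The unnamed E90 cluster at 17.1% had red cell genes at 4543 CPM of the UMIs outside the mitochondrial genome, beside 711 CPM in the other large unnamed E90 cluster, of 1759 cells at 11.4%. The part of either list in the member share was not tested.

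The balance within the 10 was compared in the same classes. COX2 made up less of the 10 at E120 than at E60 in each class present at both. In dermal-like cells it went from 17.9% (17.8% to 18.0%) to 15.9% and 13.4% (13.1% to 13.7%), and in endothelial-like cells from 15.9% to 14.4% and 13.2%. In mural-like cells it was 18.9% at E60 and 14.8% at E120, and in myeloid-like cells 16.4% (16.1% to 16.7%), 15.3% and 15.3% (14.2% to 16.5%), where the intervals overlapped. The lower COX2 part at E120 was thus also found within dermal-, endothelial- and mural-like cells. The order of COX3 over the whole libraries, higher at each later stage, was found in dermal-like cells, at 28.5%, 28.9% and 29.4%. It was not found in endothelial-like cells, at 29.1%, 30.0% and 28.7%, or myeloid-like cells, at 26.8%, 30.0% and 26.3%. In mural-like cells COX3 was 28.3% at both E60 and E120. Epithelial-like cells, a class that E60 did not have, were at 30.2% at E90 and 32.3% at E120.

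For ND1 the classes differed. In dermal-like cells ND1 was 3.81% (3.76% to 3.86%) of the 10 at E60, 4.13% at E90 and 4.10% (3.92% to 4.28%) at E120, and in endothelial-like cells 4.23%, 4.41% and 4.06%. The low ND1 of the whole E120 library, 3.13%, was found in epithelial-like cells, at 3.00% (2.99% to 3.02%) against 4.46% (4.42% to 4.50%) at E90. It was not limited to them. In mural-like cells ND1 was 3.73% (3.61% to 3.85%) at E60 and 3.27% (3.02% to 3.54%) at E120. In myeloid-like cells it was 3.99% (3.83% to 4.15%), 4.33% and 3.55% (2.97% to 4.19%), where the E60 and E120 intervals overlapped. ND4 in dermal-like cells was 8.10%, 9.50% and 8.52%, and in epithelial-like cells 9.12% at E90 and 6.70% at E120. Mast-like cells of E120 had 2.62% ND1, beside 4.13% at E90, and 5.14% ND4, the latter the lowest of all 81 clusters. ND4 was at its highest at E90 in each of the 3 classes found at all stages.

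The COX1 part spread widely over the classes. At E120 it was 13.3% of the 10 in epithelial-like cells, 14.6% in dermal-like, 17.4% in endothelial-like, 18.2% in mural-like, 18.4% (17.2% to 19.7%) in myeloid-like and 22.9% (22.2% to 23.6%) in mast-like cells. At E90 the same classes, without the mural-like one, lay between 11.6% and 12.8%. At E60 myeloid-like cells were at 17.4% (17.1% to 17.7%) and the other classes present later between 12.7% and 13.7%. One E60 myeloid-like cluster of 70 cells, led by SPP1, CCL8, AIF1 and C1Q genes of macrophages, reached 20.5%, beside 13.5% in the other, of 49 cells. Myeloid-like cells thus had the highest COX1 part at E60, mast-like cells at E120, and at E90 the classes were close together.

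**Figure D4:**
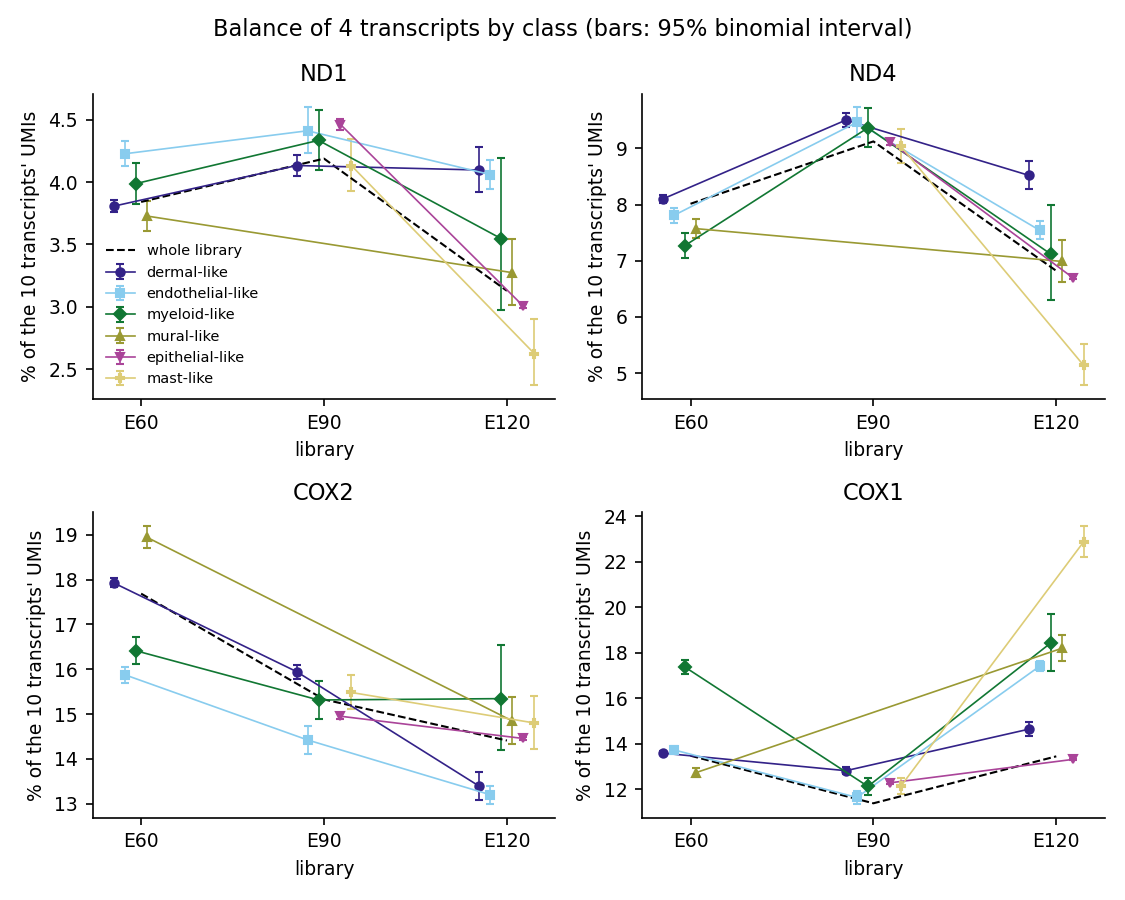
Percent of the UMIs of the 10 transcripts that came from ND1, ND4, COX2 and COX1 in 6 classes and in the whole libraries (dashed), with exact 95% binomial intervals. COX2 is lower at E120 than at E60 in each class drawn at both stages, ND1 at E120 is at 4.10% in dermal-like and 3.00% in epithelial-like cells, and COX1 at E120 spreads over the classes up to 22.9% in mast-like cells.

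The E90 classes were alike for other transcripts too. Over clusters, ND1 ran from 3.93% to 4.68% of the 10 at E90 and from 1.96% to 4.18% at E120, COX3 from 28.5% to 31.8% at E90 and from 26.3% to 36.3% at E120, and CYTB from 13.4% to 14.97% at E90 and from 10.9% to 15.4% at E120. E60 lay between for COX1, at 11.1% to 20.5%, beside 10.4% to 14.2% at E90 and 11.3% to 22.9% at E120. A late hair shaft-like cluster of E120, with 48 cells led by KRTAP11-1 and KRT33A, had the highest COX3, 36.3%, and the lowest ND1, 1.96%. At 28138.5 UMIs its cells were also the deepest of those described here.

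The balance also differed with the share itself. At E90, COX1 was 13.3% of the 10 in cells with 5% to 7.5% of their UMIs from the 10, 11.4% in cells with 10% to 15%, and 9.85% in cells with 20% to 30%. COX3 went from 29.4% to 30.7% and 32.2% over the same bins, and CYTB from 13.8% to 14.5% and 14.98%. The E60 cells showed the same directions, with COX1 at 15.5% in cells with 2% to 3% and 12.2% in cells with 10% to 15%, and COX3 at 27.3% and 30.4%. At E120, COX1 was at 16.7% in cells with 2% to 3%, at 11.6% in cells with 20% to 30%, and at 13.4% in the 135 cells above that. Cells at a like share still differed between libraries: from 5% to 7.5%, COX3 made up 29.3% in E60, 29.4% in E90 and 31.7% in E120, and COX2 was 17.4%, 15.3% and 14.3%. Share and balance come from the same counts and the bins differ in cell type, so these values are a description.

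ND6 did not scale with the other 9 at E90. It was at 64.7 CPM of the UMIs outside the mitochondrial genome (52.5 to 78.9) in E90 cells with 4% to 5%, at 74.9 (69.0 to 81.3) in cells with 10% to 15%, and at 43.4 (33.6 to 55.1) in cells with 20% to 30%. Over those bins the 10 transcripts went from 47.8 to 307 UMIs per 1000 other UMIs. At E60, ND6 was at 8.17 (7.09 to 9.37) in cells with 4% to 5% and 10.5 (5.76 to 17.7) in cells with 7.5% to 10%. At E120 it was at 4.45 (3.18 to 6.05) in cells with 3% to 4% and 38.2 (19.7 to 66.7) in cells with 20% to 30%, higher as the other transcripts were. In the classes of E90, ND6 was between 43.4 and 108 CPM on this scale, and in those of E120 between 4.17 and 9.54, so that each E90 class lay above each E120 class.

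**Figure D5:**
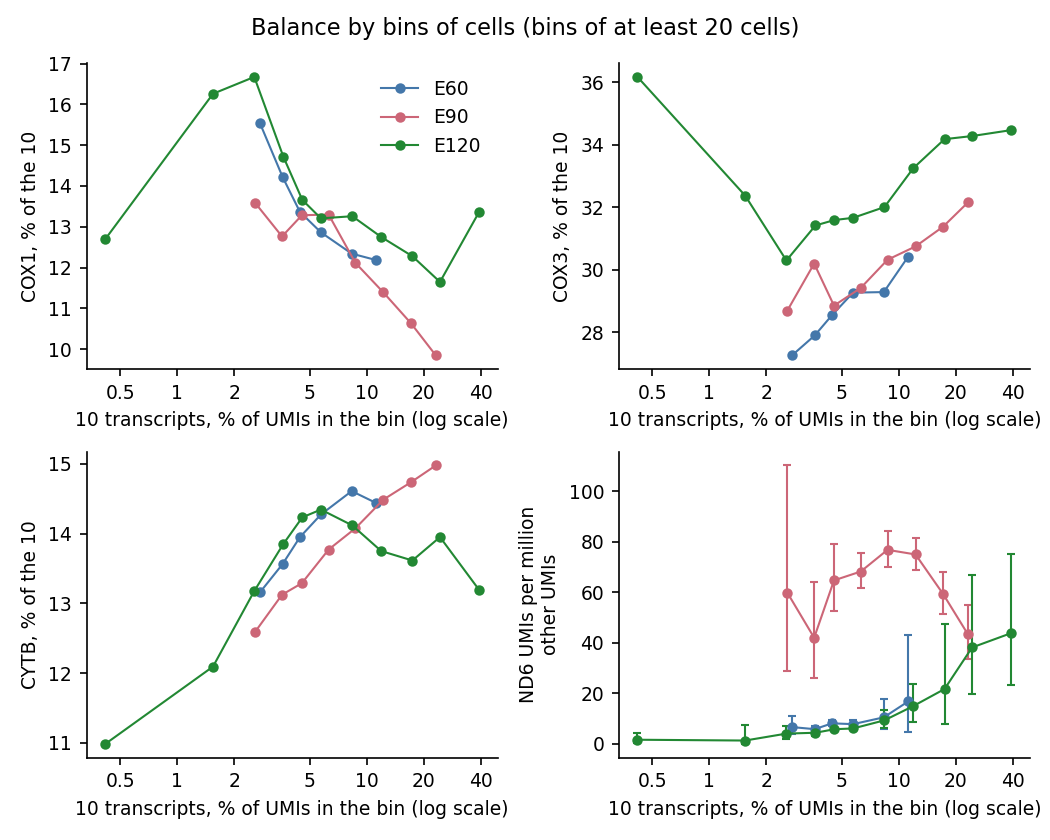
COX1, COX3 and CYTB as a percent of the 10 transcripts, and ND6 in CPM of the UMIs outside the mitochondrial genome with exact 95% Poisson intervals, against the share of the 10 in bins of at least 20 cells (log scale) in each library. At E60 and E90 the COX1 part is lower and the COX3 part higher at high shares, and ND6 at E90 stays between 42.0 and 76.8.

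The E120 cells with a share under 1% lay mostly in a pair of clusters. Of the 550 cells, 347 lay in 2 unnamed clusters, where they made up 85.9% of 213 cells and 82.8% of 198 cells. The first had a share of 0.768% (0.749% to 0.788%) and was led by HBAI, HBAII and ALAS2, genes of red cell hemoglobin and heme synthesis. DAPL1, which also led hair shaft-like clusters of E120, and TRIM29 were among its leading genes too. Against the other libraries this cluster had 5 hair shaft markers, and it stayed unnamed because markers of another class led. The second had 0.993% (0.973% to 1.01%) and was led by S100A8, KRT23 and S100A12. Their red cell gene sums were 11794 and 1908 CPM of the UMIs outside the mitochondrial genome, beside 141 CPM in the epithelial-like cells. Median depths were 3206 and 3513 UMIs. In the 550 cells together COX3 made up 36.2% of the 10, CYTB 11.0% and ND1 2.38%, beside 31.7%, 14.3% and 3.13% in E120 cells with 5% to 7.5%.

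Their nuclear respiratory chain genes were not low. The 41 such genes in the table summed to 12161 CPM of the UMIs outside the mitochondrial genome in the 550 cells and to 12449 CPM in cells with 5% to 7.5%. At E90, 78 erythroid-like cells had red cell genes at 151399 CPM, a member share of 8.41% (8.31% to 8.50%) and nuclear chain genes at 4729 CPM, at a median depth of 3679.5 UMIs beside 3714 for the library. Mammalian red cells lose their mitochondria as they mature, and how far these fetal cells had matured was not measured. Their share stands here as the level in the E90 cell type that may hold the fewest mitochondria, and the part of free RNA in the E90 shares was not tested.

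Some of the E120 cells with the highest shares also had a cluster of their own. A hair shaft-like cluster of 63 cells, led by HEPHL1 and DSG4, was at 37.3% (37.1% to 37.5%). It held 60 of the 234 E120 cells at 20% or more and 51 of the 135 at 30% or more, so most such cells lay outside it. Its median depth was 3342 UMIs, beside 18315 in all hair shaft-like cells, and its nuclear chain genes were at 7127 CPM beside 12307 CPM. In no other E120 cluster did cells at 20% or more make up more than 7.30%. At E90, 317 of the 394 cells at 20% or more lay in the unnamed cluster of 1537 cells.

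Across depth within a library the pooled share differed little at E60 and E90. In 5 groups of E60 cells of near-equal size, ordered by depth, the pooled share lay between 4.38% and 4.58%, and in the same groups of E90 cells between 10.5% and 11.6%. At E120 it was 7.77% in the shallowest group and 4.997% in the deepest. The spread differed more: the middle 90% of cells ran from 0.266% to 37.4% in the shallowest E120 group and from 3.59% to 6.40% in the deepest. Both tails of E120 therefore lay at low depth.

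Nuclear genes of the same complexes did not follow the 10 transcripts. Of 76 listed genes, 41 were in the table under a symbol, and their sum was 9241 CPM at E60, 6809 CPM at E90 and 11087 CPM at E120. The sum was lower at E90 (log2 ratio -0.44) where the 10 transcripts were higher, and higher at E120 than at E90 (0.70) where they were lower. Relative to UMIs outside the mitochondrial genome the ratio from E60 to E90 was -0.33. From E60 to E90, 0 of 38 genes with enough counts were at least 2-fold higher and 1 was lower, NDUFB5 of complex I, at 132 and 65.7 CPM, named after its value was seen. Over all genes these shares were 21.3% and 8.08%. The median of the 38 log2 ratios was -0.35, beside 0.13 over all genes. From E90 to E120, 9 of 38 were at least 2-fold higher and 0 lower, beside 9.99% and 24.2% over all genes, with a median of 0.69 beside -0.24. From E60 to E120, 0 of 38 passed in either direction, beside 19.4% and 21.5%, with a median of 0.33 beside 0.02.

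The pattern was alike in the lists for each complex. The median log2 ratios from E60 to E90 and from E90 to E120 were -0.39 and 0.68 over 26 nuclear genes of complex I, -0.32 and 0.70 over 5 of complex III, -0.31 and 0.66 over 3 of complex IV, and -0.59 and 0.82 over 4 of ATP synthase. NDUFS5, an accessory subunit of complex I, was at 669, 555 and 699 CPM at E60, E90 and E120. NDUFB10 and NDUFA13 of the same complex were at 343, 294 and 551 CPM and at 475, 273 and 354 CPM. UQCRQ, UQCRC1 and CYC1 of complex III were all lowest at E90 and highest at E120, with CYC1, cytochrome c1, at 123, 98.5 and 190 CPM. COX5B and COX6B1 of complex IV were at 466, 343 and 559 CPM and at 310, 267 and 424 CPM, and COX8A was at 64.9, 52.2 and 50.5 CPM. ATP5MC3, ATP5F1B and ATP5PB of ATP synthase were lowest at E90 as well, with ATP5F1B, the catalytic beta subunit, at 373, 292 and 606 CPM. SDHD and SDHC of complex II, which has no mitochondrially encoded subunit, were under 4 CPM in each library and were not counted.

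Genes for the upkeep of mitochondrial DNA and RNA were at or below the share of all genes past 2-fold at each successive step. Of 26 listed genes 22 were in the table and 11 had enough counts. TFAM, which packages mitochondrial DNA and starts its transcription, was at 11.4 CPM at E60, 25.3 CPM at E90 and 27.2 CPM at E120, and was the only one of the 11 that was at least 2-fold higher at E90 than at E60, beside 21.3% of all genes. TFB2M, a transcription factor of mitochondria, was at 21.9, 23.5 and 49.4 CPM, the only one at least 2-fold higher at E120 than at E90, beside 9.99% of all genes. From E60 to E120, 4 of 11 were at least 2-fold higher, TFAM, TFB2M, PNPT1 and POLRMT, the last being the mitochondrial RNA polymerase at 4.93 and 11.3 CPM, and 0 were lower, beside 19.4% and 21.5% of all genes. TFAM, PNPT1 and POLRMT are named because they passed. FASTKD2 and MTPAP, which act on mitochondrial RNA, were at 26.3, 27.0 and 28.4 CPM and at 17.7, 23.1 and 26.1 CPM.

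The genes whose pattern across clusters was most like the summed share were sought among 627 genes with at least 100 CPM in every library, over 21, 24 and 27 clusters of at least 50 cells at E60, E90 and E120. A pair of rows without a symbol came first, ENSCHIG00000007355 with a mean Spearman correlation of 0.96 and ENSCHIG00000012599 with 0.95. They were at 883, 2263 and 961 CPM and at 6004, 14380 and 6022 CPM, so that both followed the 10 transcripts across stages as well. Together they made up 0.689%, 1.66% and 0.698% of all UMIs. The next were another row without a symbol (0.57), SLC25A5 (0.53), an exchanger of ADP and ATP across the inner mitochondrial membrane, and CLPTM1L (0.50). SLC25A5 was at 130, 160 and 781 CPM and so did not share the peak at E90. Points of these correlations share their libraries and depth. When the first pair was left out of the clustering, 1469 of the 1537 cells of the high E90 cluster stayed together, in a cluster of 2143 cells at 16.1%, and all 63 cells of the high E120 cluster stayed together in one at 37.4%. Some other clusters were less stable. Of the 1759 cells of the largest E90 cluster, 861 stayed together, in a cluster of 920 at 10.5%. Of the 94 dermal papilla-like E90 cells, 53 stayed together, at 8.28% beside 9.53%. The 198 cells of the E120 cluster at 0.993% fell in one of 210 cells at 1.60%.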

How the data were processed

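Single-cell RNA was measured in 3 libraries of goat fetal skin, 1 per stage, with a 3′ droplet chemistry. Reads were processed with Cell Ranger 3.0.2, per the submitters' processing notes. The genome build, annotation, cell filters and use of strand are not given in the sources used here. The deposited values are natural log values, ln(1 + UMIs scaled to 10000 per cell), with 0 columns left without a library. UMI counts were recovered from these values by dividing by the smallest step of each cell, and 100% of them came out within 0.01 of a whole number. The recovery and the ratios were tested on simulated data.

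Samples were grouped by stage as labelled. With 1 library per stage every comparison is a description: summed UMIs were expressed as percent or CPM with exact Poisson or Clopper-Pearson 95% intervals, which cover counting error only, and log2 ratios used CPM + 1. Ratios are of the later over the earlier stage. Genes of at least 10 CPM in the higher library entered counts past 2-fold. Where a count is 0, 3 UMIs give the upper limit.

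Cells were clustered within each library without the 13 mitochondrially encoded genes (2000 variable genes, 30 principal components, 20 neighbours, Leiden resolution 1). A class needed 3 markers found in at least 10% of a cluster's cells and at least 2-fold above the rest of its library. Where fewer were found, a marker counted at 2-fold above the other libraries and at least 0.8 of the rest of its own. Clusters with ties stayed unnamed, as did those where another class had more of the 10 leading genes than their own class. Low depth, a median under 1/3 of the library's, left a cluster unnamed only where no leading gene was of its class. Some shallow clusters were therefore named. This scoring was set after the data were seen. Names rebuilt in this way may differ from those of the study. No doublets were removed, and leaving out 6% of the cells, by doublet score, was an alternative.

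The members, gene lists and markers were chosen with earlier results of these data known. Genes named are the 10 members, the 3 most abundant of each pathway list, the 5 most like the members, leading genes of the clusters described, and genes of counts of 5 or fewer, which were seen first. Of the listed genes only those under a symbol in the table were used, and rows with an identifier alone were not named. Python 3.11.15, numpy 2.4.6, scipy 1.17.1, scikit-learn 1.9.0, leidenalg 0.10.2, igraph 0.11.9 and matplotlib 3.10.9 were used.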

Additional observations from a re-analysis of the deposited data

How the results depend on the processing

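The log2 ratio of the summed share was above 0 from E60 to E90, below 0 from E90 to E120 and above 0 from E60 to E120 under every alternative run. In that order it was 1.34, -0.95 and 0.39 with each cell weighing the same, and 1.34, -0.95 and 0.39 with each cell thinned to 2000 UMIs. It was 1.42, -1.15 and 0.27 over UMIs not mitochondrially encoded, 1.28, -1.04 and 0.24 in cells with at least 1000 genes, 1.32, -1.07 and 0.25 leaving out 6% of cells by doublet score, and 1.26, -1.00003 and 0.26 with median-of-ratios scaling. The largest departure was in cells with at most 10% of UMIs from the 10, at 0.66, -0.50 and 0.16, where most of the cells left out are from E90. Without cells under 1% or over 20%, chosen after seeing the data, it was 1.19, -0.96 and 0.23. The summed nuclear chain genes had a log2 ratio below 0 from E60 to E90 and above 0 in the other comparisons under each alternative. From E60 to E90 this was -0.33 over UMIs not mitochondrially encoded, -0.43 in cells with at least 1000 genes, -0.42 in cells with at most 10%, -0.50 with median-of-ratios scaling and -0.43 without cells under 1% or over 20%. Between E90 and E120 it was 0.64 with each cell weighing the same and 0.64 thinned, 0.61 over UMIs not mitochondrially encoded, 0.69 in cells with at most 10%, 0.76 with median-of-ratios scaling and 0.69 without cells under 1% or over 20%. Between E60 and E120 it was 0.20 with each cell weighing the same and 0.20 thinned, 0.28 over UMIs not mitochondrially encoded and 0.27 in cells with at most 10%.

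Some ratios of single transcripts changed sign, and the cause was not tested. Between E60 and E120 ND1 was at 0.13 with each cell weighing the same and 0.14 thinned, COX2 at 0.066 and 0.066, and ND6, at -0.24 as reported, at 0.031 thinned. In cells with at most 10%, ND3 and ND4 were at -0.057 and -0.075, and ND4 was at -0.0072 without cells under 1% or over 20%. The CYTB part of the 10 had a log2 ratio of -0.013 from E60 to E120 with each cell weighing the same, and in cells with at most 10% of -0.0054 from E60 to E90 and 0.035 from E90 to E120. Classes set cell by cell from markers turned the E60 to E120 ratio to 0.23 in dermal-like and 0.051 in mural-like cells, and lowered the myeloid-like ratios to 0.51 from E60 to E90 and -0.84 from E90 to E120 (1.13 and -1.61 as reported). In mast-like cells with at most 10%, a limit on the measured share itself, the ratio from E90 to E120 was -1.31, beside -1.91. E90 had the higher share in 8 of 8 class contrasts under the alternatives, except that leaving out high doublet scores left 7, since few E120 myeloid-like cells remained. Of the 7 transcripts at least 2-fold lower at E120 than at E90, 5 passed with each cell weighing the same, thinned or without cells under 1% or over 20%, and 1 in cells with at most 10%.

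No paired analysis was possible because each stage has 1 library. Pooled fetuses, the E120 follicle preparation and the different lowest depths cannot be told apart from stage. At the depths here ND6 was at or under 1823 UMIs a library, so its values per cluster have wide counting intervals.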

Other observations

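Genes of the mitochondrial ribosome, which translates the 10 transcripts and is itself encoded in the nucleus for all its proteins, followed the nuclear chain genes rather than the 10 in their levels. The list was every gene of the table whose symbol is MRPL or MRPS followed by a number, 58 in all. It thus gives no measure of coverage, and ribosomal genes under an identifier alone were not in it. It was chosen with earlier results of these data known. The 58 genes summed to 2992 CPM at E60, 2053 CPM at E90 and 3631 CPM at E120. From E60 to E90, 1 of 37 genes with enough counts was at least 2-fold higher (MRPL9) and 1 lower (MRPL17), beside 21.3% and 8.08% of all genes, with a median log2 ratio of -0.36 beside 0.13. From E90 to E120, 9 of 42 were at least 2-fold higher and 0 lower, beside 9.99% and 24.2% of all genes, with a median of 0.74 beside -0.24. MRPL17 was at 437, 132 and 191 CPM, MRPL11 at 182, 99.6 and 326 CPM, and MRPL41 at 111, 107 and 280 CPM. The sum was thus lowest in the library where the 10 transcripts took their largest share.

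Glycolytic genes, 13 of 20 listed, summed to 591 CPM at E60, 424 CPM at E90 and 544 CPM at E120. The sum and the median differed in sign from E60 to E90, at log2 ratios of -0.48 and 0.47, the latter over the 6 genes with enough counts. PKM, which makes pyruvate, accounted for most of the sum with 476, 269 and 375 CPM, while PFKL was at 43.2, 36.6 and 47.3 CPM and HK1, which starts glycolysis, at 20.3, 37.6 and 25.5 CPM. None of the 6 passed 2-fold in the steps from E60 to E90 and from E90 to E120, and 1, PFKP, was higher at E120 than at E60, where 19.4% of all genes were. Genes of the mitochondrial stress response, 13 of 16 listed, summed to 1054, 1246 and 1784 CPM. ATF4, the transcription factor of that response, was at 548, 690 and 733 CPM, the chaperonin HSPD1 at 331, 346 and 600 CPM, and PHGDH of serine synthesis at 60.8, 57.5 and 222 CPM. Between E60 and E120, 3 of 7 with enough counts were at least 2-fold higher, DDIT3, PHGDH and HSPA9, and 0 lower, beside 19.4% and 21.5% of all genes.

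Of the early response and heat shock genes, 5 of 12 were at least 2-fold higher at E90 than at E60 (FOSB, JUNB, ATF3, IER2 and HSPB1) and 0 lower, beside 21.3% and 8.08% of all genes. Between E90 and E120, 2 were higher, HSP90AA1 and HSPH1, and 5 lower, FOS, FOSB, EGR1, ATF3 and IER2, beside 9.99% and 24.2% of all genes. FOS was at 4695, 7484 and 2317 CPM in the order of the stages, HSP90AA1 at 3035, 2416 and 4852 CPM, and JUN at 1654, 2199 and 1562 CPM. Across the cells of a library, the Spearman correlation of the share with depth came to 0.01, -0.11 and 0.18, and that with the nuclear chain genes was 0.03, 0.18 and 0.15.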
